A study of Mus musculus with 9 samples.

Results

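Serpina3n and Slpi encode secreted inhibitors of serine proteases and were selected on the authors' group means at all 3 stages of a mouse bowel surgery series, because these means took opposite courses. All rows with either symbol were taken from the deposited table of gliosis genes and the deposited table of changed genes. Each gene had 1 transcript, NM_009252 for Serpina3n, which stood in both tables with the same values, and NM_011414 for Slpi, which stood only in the table of changed genes. The pair makes up 2 of 634 transcripts, or 2 of 531 gene symbols, in the joined tables.

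RNA-Seq was performed on muscularis externa (ME), the muscle coat of the small intestine with its myenteric ganglia, from BL6 mice aged 8 to 12 weeks. The 9 libraries formed 3 groups of 3, which were controls, mice 3 h after intestinal manipulation (IM3h) and mice 24 h after it (IM24h), manipulation being a standardized handling of the small bowel used to model postoperative ileus. The labels describe the controls as sham operated and the table headers call them naive, and this was not resolved here. Nothing in the labels says whether a library came from 1 mouse. The IM3h libraries carry identifiers of another number series than both other groups, and whether that series or the time point sets a 3 h value cannot be told apart.

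Only group means were used, as the authors' means of normalized counts. Values per library were not used here, the depth is unknown, and no standard deviation, interval or test stands behind any difference below. The differences are therefore descriptions of 3 means, and whether they exceed the spread between libraries was not tested. The table of changed genes is itself a selection, since all of its 502 transcripts differed at least 2-fold in each of the 3 contrasts, so counts within the tables do not describe the whole transcriptome.

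As background, serpins trap their target protease by presenting a reactive loop that the protease cleaves, after which inhibitor and enzyme stay bound in an inactive complex. Serpina3n is a member of a mouse gene cluster related to human antichymotrypsin. It is an acute-phase protein and, in the mouse brain, a marker of reactive astrocytes. Slpi belongs to the whey acidic protein family, blocks the active site reversibly, and is known as an inhibitor of neutrophil elastase and cathepsin G that epithelia, neutrophils and macrophages release. Enteric glia, the counterpart of astrocytes in the bowel wall, lie within the ME.

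The stretches upstream of both genes are shown to describe the sequence next to them, and their part in regulation was not tested. Both come from RefSeq, assembly GRCm38.p6, and end just before the first annotated RefSeq base of the gene. The Serpina3n stretch is chr12:104406458-104406645 on the plus strand, 188 bases in no GENCODE gene. The Slpi stretch is chr2:164356508-164356757 on the minus strand, 250 bases that lie inside a longer GENCODE model of Slpi but in none of its exons. Capitals mark motif matches.
Serpina3n: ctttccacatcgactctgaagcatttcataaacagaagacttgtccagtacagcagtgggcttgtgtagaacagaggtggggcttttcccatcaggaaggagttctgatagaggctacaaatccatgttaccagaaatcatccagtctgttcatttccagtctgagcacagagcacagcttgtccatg
Slpi: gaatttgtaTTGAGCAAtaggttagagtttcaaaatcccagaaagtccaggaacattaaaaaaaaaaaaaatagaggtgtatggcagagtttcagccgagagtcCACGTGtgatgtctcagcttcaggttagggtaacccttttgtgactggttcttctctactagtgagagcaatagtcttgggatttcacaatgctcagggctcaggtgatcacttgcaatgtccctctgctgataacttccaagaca

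No measurement here bears on these stretches, and the motif matches are a description of their letters. The window of 300 bases around 1 annotated start per gene (250 before it and 50 after it) was searched on both strands. For Serpina3n this start lies downstream of the first RefSeq base of the gene. Only the 188 bases shown thus lie before the gene, and the rest of its window lies within it. The letters TTGCNNAA, bound by C/EBP factors, were in 10.8% of 32851 such windows in the table, and Slpi held 1 match on the reverse strand, reading TTGCTCAA. The E-box CACGTG, which reads the same on both strands, was in 7.15% of the windows and once in that of Slpi, and the matches do not overlap. Neither gene held the other letters searched, which says only that they are not in this window. These were TTCNNNGAA for STAT factors, in 8.30% of the windows. For AP-1 they were TGA, any base, then TCA, in 7.81% of the windows. The TATA box, written as TATAAA, was in 13.6% of the windows, and the NF-kB consensus in 8.46%. Serpina3n held no match to any of the 6 motifs.

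Serpina3n had its lowest mean in controls and its highest at 24 h. The authors' means were 3.27 normalized counts in controls, 41.2 at IM3h and 274 at IM24h, and their total over all libraries was 956. The mean was 12.6-fold above control at 3 h and 83.8-fold above it at 24 h, log2 ratios of 3.66 and 6.39, and it was 6.65-fold higher at 24 h than at 3 h. Thus 86.0% of the summed group means came from IM24h, 12.9% from IM3h and 1.03% from controls. The gain at 3 h was 14.0% of the gain at 24 h in normalized counts but 57.2% of it on the log2 scale.

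Slpi ran the other way, with its highest mean in controls and its lowest at 3 h. The authors' means were 79.5 normalized counts in controls, 5.76 at IM3h and 13.5 at IM24h, with a total of 296. The mean was 13.8-fold below control at 3 h and 5.91-fold below it at 24 h, log2 ratios of -3.79 and -2.56. At 24 h it was 2.34-fold higher than at 3 h, which made up 10.4% of the distance to the control mean. Controls held 80.5% of the summed means, IM3h 5.84% and IM24h 13.6%. In bulk tissue, fewer cells of a type and less RNA per cell cannot be told apart for Slpi, nor more cells and more RNA per cell for Serpina3n.

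**Figure D1:**
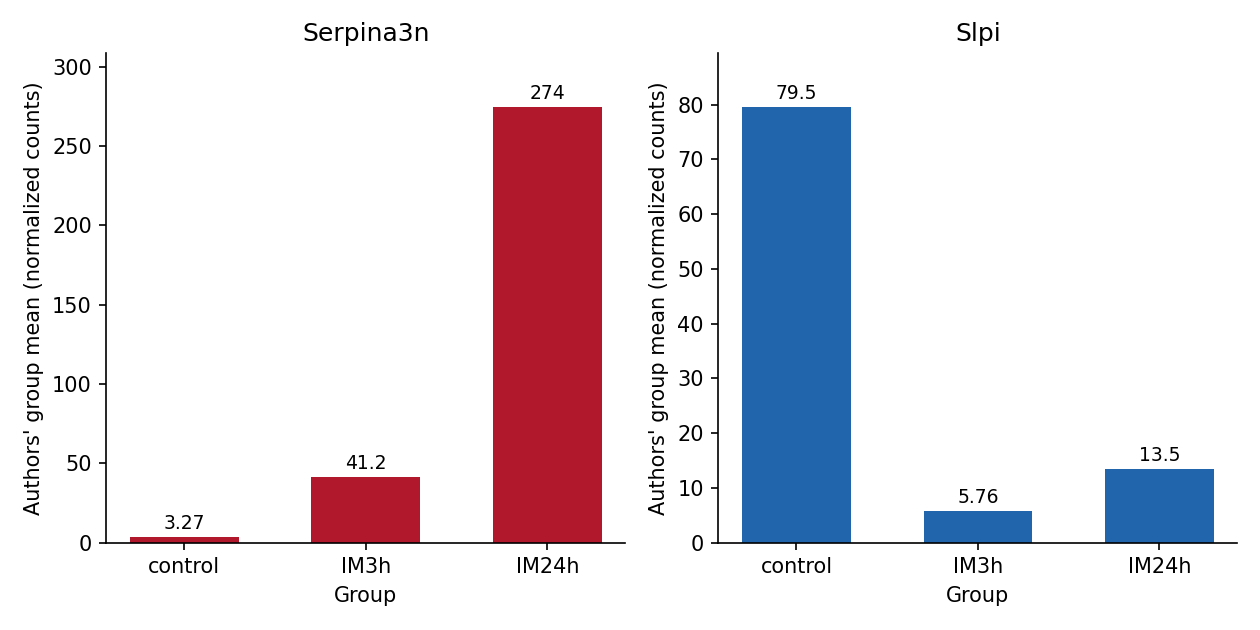
Authors' group means in normalized counts for Serpina3n (left) and Slpi (right), one bar per group and a separate linear axis from 0 for each gene; no error bars are drawn because only group means were used. Serpina3n is at 3.27, 41.2 and 274 in control, IM3h and IM24h, and Slpi at 79.5, 5.76 and 13.5.

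The values that picked the pair can be placed among the other listed transcripts, as a description. A transcript was counted as higher or lower when its group means differed by more than 1.5-fold. Both genes stand in the table of changed genes, where every transcript differed at least 2-fold in each contrast. That they passed this limit was thus fixed beforehand, as for 502 of the 634 transcripts. At 3 h Serpina3n was 1 of 326 transcripts above control (51.4% of 634) and Slpi 1 of 252 below it (39.7%). At 24 h Serpina3n was 1 of 480 above control (75.7%) and Slpi 1 of 117 below it (18.5%). From 3 h to 24 h both were among 387 that were higher (61.0%), whereas 184 were lower (29.0%).

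By size, the 3 h ratio of Slpi was the second lowest of 634. The single lower one, singled out after its value was seen, was Zmym3 (NM_001177985), whose means went from 2.25 to 0.0983 with a total of 26.5. At 24 h Slpi stood 17th from the lowest. Serpina3n stood 49th from the highest at 3 h and 13th at 24 h. For the ratio of 24 h to 3 h it was 97th, and Slpi was 334th, near the middle, with a log2 ratio of 1.22 against a median of 1.30 over all 634 transcripts. These places depended on the processing. With a pseudocount of 1, the share of other transcripts above Serpina3n went from 1.90% to 0.316% at 24 h and from 15.2% to 4.11% between the times, and with totals of 90 or more it went from 7.58% to 14.0% at 3 h, from 1.90% to 3.07% at 24 h and from 15.2% to 7.46% between the times. With a pseudocount the share below Slpi went from 0.158% to 0% at 3 h and from 2.53% to 0.948% at 24 h.

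The shape of the Slpi course was less frequent in the tables than that of Serpina3n. The order control, then IM3h, then IM24h from low to high was held by 170 transcripts (26.8%), Serpina3n among them. The order IM3h, then IM24h, then control was held by 40 (6.31%), Slpi among them. The most frequent order, with IM3h lowest and IM24h highest, was held by 212 transcripts (33.4%) and by neither gene. Medians over the 634 transcripts were a log2 ratio of 0.79 at 3 h and 1.29 at 24 h against control. Over the 155 transcripts of the gliosis table they were 0.39 and 0.97.

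**Figure D2:**
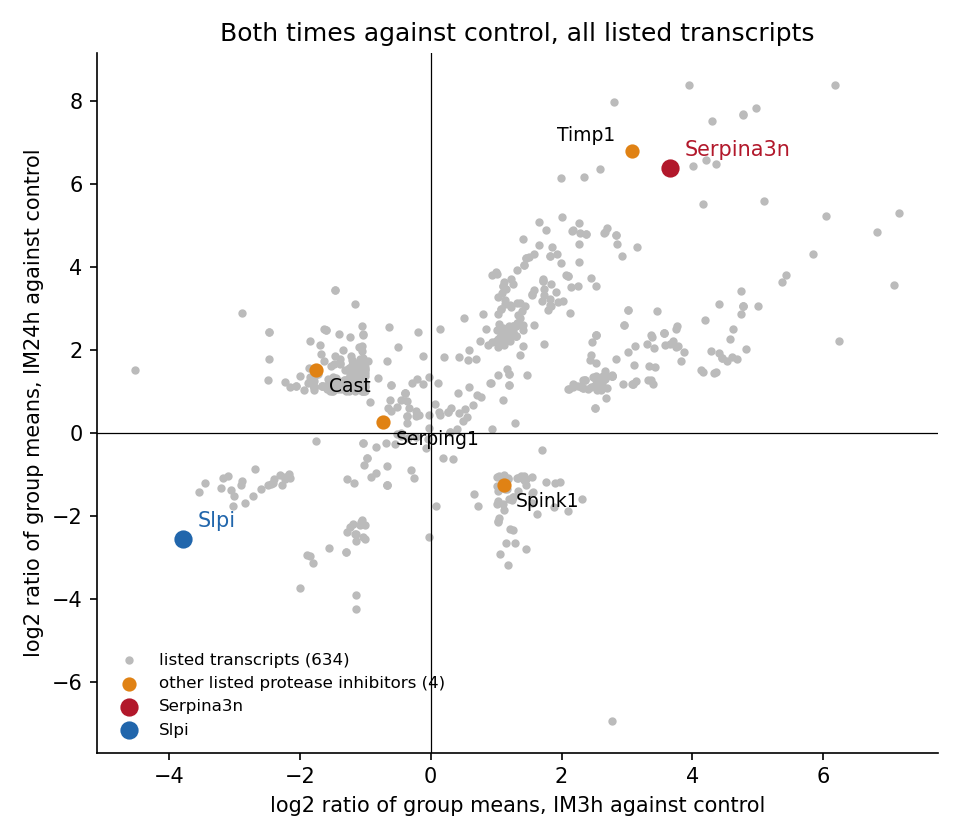
Each point is a listed transcript, with the log2 ratio of group means against control at IM3h on the x axis and at IM24h on the y axis; grey points are all 634 transcripts, orange points 4 other listed protease inhibitors. Serpina3n lies at 3.66 and 6.39 in the upper right and Slpi at -3.79 and -2.56 in the lower left.

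The other inhibitors of serine proteases described here did not share the course of either gene. Of 59 such genes 4 were described, the pair included, so Serping1 and Spink1 are the only comparison. The list is not complete, and no order or median over it is given. At 3 h 2 of the 4 were above control and 2 below, and at 24 h 1 was above, 2 below and 1 within 1.5-fold. Over all 634 transcripts 51.4% were above and 39.7% below at 3 h, and 75.7% above and 18.5% below at 24 h, so 2 of 4 in each direction at 3 h is near the shares of the whole tables.

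Serping1, the inhibitor of the complement proteases C1r and C1s, had means of 128, 77.3 and 154, so it was 1.66-fold below control at 3 h and 1.20-fold above it at 24 h. Spink1, a Kazal-type trypsin inhibitor of secretory epithelia, had means of 21.5, 46.6 and 9.08. It was 2.17-fold above control at 3 h, where Slpi was lowest, and 2.37-fold below it at 24 h. All 8 epithelial markers described below had this order too, which 9.15% of the 634 transcripts held. Whether epithelial RNA had a part in the Spink1 means was not tested. Slpi was below control at both times, which neither Serping1 nor Spink1 was.

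Of 15 inhibitors of other protease classes on the list 2 were in the tables, and both had their highest mean at 24 h, as had 382 of all 634 transcripts (60.3%). Timp1, an inhibitor of matrix metalloproteases, had means of 0.994, 8.42 and 110, and was 8.47-fold above control at 3 h and 111-fold at 24 h. Cast, the calpain inhibitor, had means of 4.77, 1.41 and 13.8 for its transcript with the largest total, 3.37-fold below control at 3 h and 2.89-fold above it at 24 h. The log2 ratios of its 3 listed transcripts ranged from -1.75 to -1.22 at 3 h and from 1.53 to 1.86 at 24 h.

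Of 40 serine proteases on the list 2 were in the tables, and the neutrophil proteases Elane, Prtn3 and Ctsg were not among them. Since the tables are a selection, this does not show that they were absent or unchanged. The complement protease gene C1ra had means of 22.0, 12.6 and 54.8, 1.75-fold below control at 3 h and 2.49-fold above it at 24 h. F10, coagulation factor X, had means of 0.296, 1.19 and 10.9, 4.03-fold and 36.7-fold above control. Both proteases had their highest mean at 24 h, which 60.3% of all transcripts had too.

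**Figure D3:**
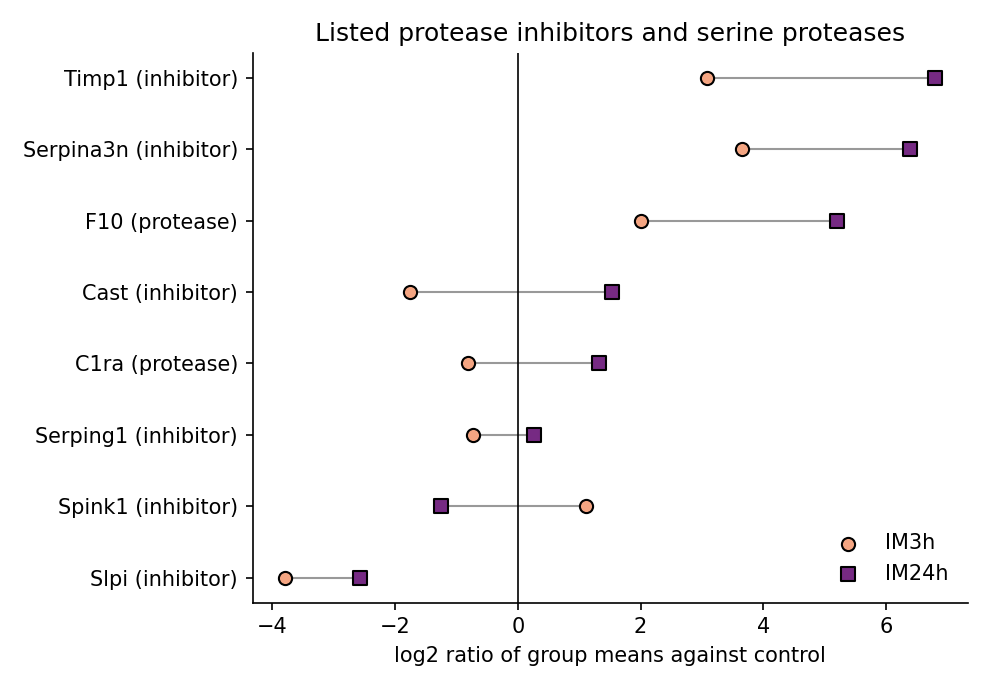
Log2 ratio of group means against control for 6 listed protease inhibitors and 2 listed serine proteases, with circles for IM3h, squares for IM24h and a line joining them. Slpi lies below 0 at both times, Serpina3n, Timp1 and F10 lie above 0 at both times, and the other 4 lie on opposite sides of 0.

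Serpina3n also belongs to marker sets of reactive glia and of the acute phase. Of 13 pan-reactive astrocyte markers 12 were in the tables, many of them through the gliosis table, whose genes the study chose, so their presence is no independent evidence. Of these 12, 11 were above control at 3 h and 11 at 24 h, with 1 within 1.5-fold at each time, where 51.4% and 75.7% of all 634 transcripts were above control, and the medians were log2 ratios of 2.74 and 2.55. By ratio, Serpina3n was number 3 of the 12 at both times. At 24 h it followed Lcn2, a siderophore-binding protein of neutrophils and reactive glia (336-fold, 0.573 to 192), and Timp1, and it stood ahead of Gfap, the glial intermediate filament, whose transcript with the largest total went from 2.79 to 25.2, a log2 ratio of 3.17, while its other listed transcript was at 0.24. Of 28 acute-phase and IL-6 response genes 9 were in the tables and 9 were above control at both times, beside the same 51.4% and 75.7% of all transcripts, and Serpina3n was number 4 of the 9 at 3 h and number 3 at 24 h, after Lcn2 and the serum amyloid gene Saa3 (253-fold, 1.31 to 332). Slpi is in neither list. The acute-phase list is not complete and leaves out the complement gene C3. C3 had means of 175 in controls, 27.3 at IM3h and 95.4 at IM24h, so it was below control at both times. That 9 of 9 were above control thus holds only for the list as chosen.

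The genes whose course lay nearest to each of the pair were found by the Euclidean distance between centred log2 means over the 3 groups, among 205 genes with a total of at least 90. A distance over 3 means is a description and says nothing of shared function. Nearest to Serpina3n were the autophagy gene Vmp1 (distance 0.27), Timp1 (0.69), the myeloid receptor gene Cd300lf (0.80), Chrdl2, a chordin-like secreted protein (0.86), and the noncoding RNA H19 (0.99). Vmp1 had means of 1.45, 23.3 and 126. All 5 had the order of Serpina3n, with log2 ratios from 2.59 to 4.78 at 3 h and from 6.37 to 7.68 at 24 h.

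Nearest to Slpi were the noncoding RNA Bvht (distance 0.85), the adrenergic receptor gene Adrb3 (1.01), Gpsm2, which acts in spindle orientation (1.12), the complement gene C3 (1.21) and the receptor gene Tnfrsf19 (1.25). Each of the 5 had the order of Slpi, and each was closer to control than Slpi at both times, with log2 ratios from -3.54 to -2.23 at 3 h and from -1.42 to -0.88 at 24 h. C3, the central component of complement, had means of 175 in controls, 27.3 at IM3h and 95.4 at IM24h. The nearest gene of Slpi was thus farther away than 3 of the 5 nearest of Serpina3n. Between the pair itself the distance was 6.78.

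**Figure D4:**
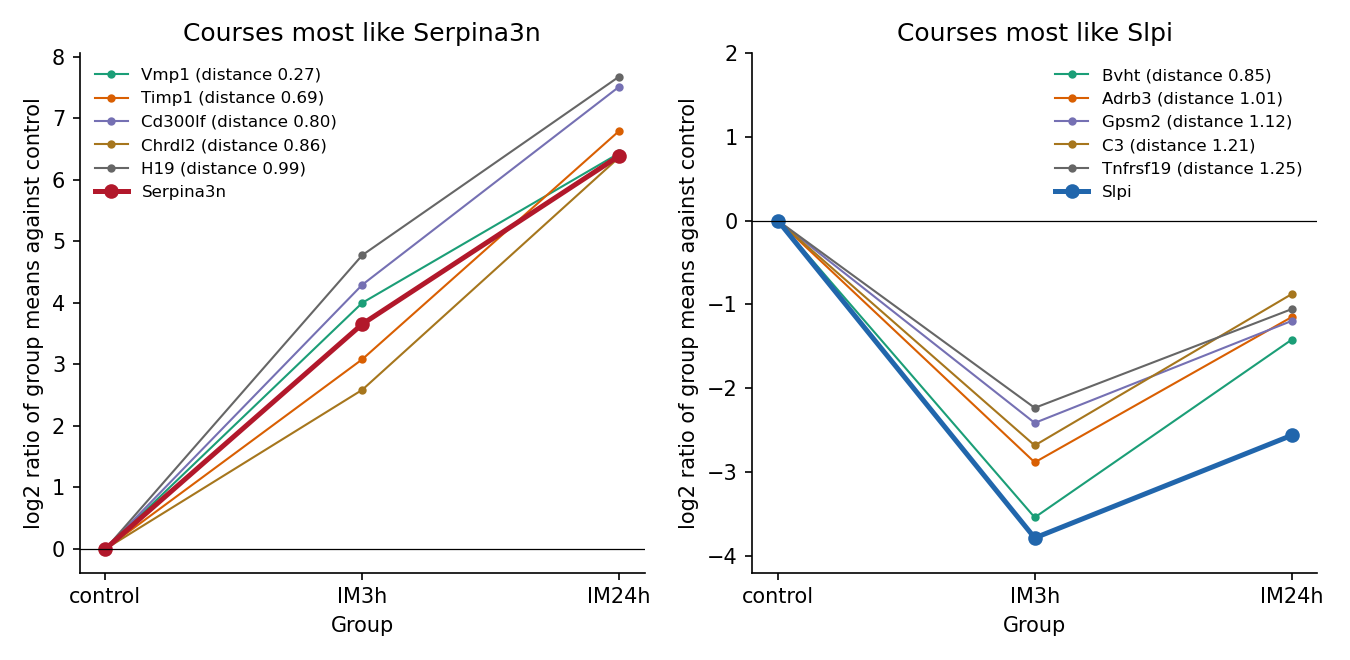
Log2 ratio of group means against control (control set at 0) in control, IM3h and IM24h for Serpina3n (left, thick line) and Slpi (right, thick line), each with the 5 genes of nearest course as thin lines and their distance in the legend. The lines around Serpina3n climb to between 6.37 and 7.68 at IM24h, and those around Slpi are lowest at IM3h and lie above Slpi at both times.

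Marker genes of other cells differed between the groups beside these courses, and their part in the results was not tested. Of 19 neutrophil markers 4 were in the tables, with summed means of 3.80 in controls, 17.3 at IM3h and 239 at IM24h, of which Lcn2 gave 192. Of the 4, 3 were above control at 3 h and 4 at 24 h, beside 51.4% and 75.7% of all transcripts. The exception, Mmp9, named after its values were seen, was 2.13-fold below control at 3 h. Of 22 monocyte and macrophage markers 9 were in the tables, with sums of 45.6, 87.2 and 434, and 8 were above control at 3 h and 9 at 24 h, beside 51.4% and 75.7% of all transcripts. The exception at 3 h, again named after its values were seen, was Csf1r, 2.74-fold below control. Ms4a6d (30.8-fold), Msr1 (23.4-fold), Itgam (19.2-fold) and Ctss (14.1-fold) had the largest 24 h ratios among those with a total of at least 90. These sums were highest at 24 h, as was Serpina3n, and 60.3% of all 634 transcripts had their highest mean there too.

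The epithelial markers differed from Slpi in direction at 3 h but not at 24 h. Of 22, 8 were in the tables, and all 8 were above control at 3 h and below it at 24 h, beside 51.4% and 18.5% of all transcripts. Their summed means were 260 in controls, 593 at IM3h and 73.9 at IM24h, and Apob, Fabp2, Sis and Clca4b were 7.54-fold, 6.31-fold, 5.03-fold and 3.86-fold below control at 24 h. At 3 h Slpi was at its lowest mean and these 8 markers were at their highest, whereas at 24 h Slpi and all 8 were below control. Whether epithelial RNA had a part in the Slpi means was not tested. The defining genes Epcam, Cdh1 and Vil1 were in neither table. None of 13 mesothelial and none of 11 enteric neuron markers were in the tables. Of 9 enteric glia markers Gfap is described above, and of 12 smooth muscle markers only Myl9 was listed, with 2414, 1963 and 1291.

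Related genes of its cluster could share reads with Serpina3n. The last 500 bases of the GENCODE transcript matched to NM_009252, the part that the 3' library kit reads, aligned to transcripts of 7 other genes, all of the Serpina3 cluster, the longest alignment being to Serpina3j over 520 positions at 71.3% identity. None of its 451 windows of 50 bases, the read length, occurred unchanged in another of these genes. Only identical windows were counted, so whether reads with mismatches were shared within the cluster was not tested. For NM_011414 of Slpi no other gene aligned, so there was no other gene to compare its windows with. No other annotated gene overlaps Serpina3n, and only the microRNA gene Mir7678 on the same strand overlaps Slpi.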

How the data were processed

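RNA-Seq libraries of mouse ME were made by the authors with a strand-specific QuantSeq 3' kit, and 50-base reads from 1 end were sequenced. Partek, with no version, is named per the labels. The aligner, genome build of the counts and normalization are not given in the sources used here. The deposited expression signal is a group mean and a total of normalized counts per transcript, and each total was 3 times the sum of the 3 means. The tables also hold the authors' fold changes, p-values and FDR, and another table their GO enrichment. None of these was used. Ratios are of group means without a pseudocount (Python 3.11.15, pandas 2.3.3).

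The pair and the 12 lists (248 genes, 44 in the tables) were chosen with earlier results of these data known. For lists, the transcript with the largest total stood for a gene. A pair of genes is not reported here and was left out of the lists. All listed protease inhibitors and serine proteases, the 5 nearest courses and up to 4 examples of every other list (largest 24 h ratio, total of at least 90) were eligible to be named. The motifs were chosen after the sequences were seen. Alignments used blastn 2.17.0. The ranking functions were tested on simulated data. Proteins were not compared here.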

Additional observations from a re-analysis of the deposited data

How the results depend on the processing

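Adding a pseudocount of 1 kept all directions of the pair. The log2 ratios of Serpina3n became 3.31 at 3 h, 6.01 at 24 h and 2.70 between the times, and those of Slpi -3.57, -2.48 and 1.10. With it, 0.316% of the other transcripts had a higher ratio than Serpina3n at 24 h in place of 1.90%, and 4.11% in place of 15.2% between the times, while 0% lay below Slpi at 3 h in place of 0.158%, and 0.948% in place of 2.53% at 24 h. When only totals of 90 or more were kept, these shares were 14.0% in place of 7.58% for Serpina3n at 3 h, 3.07% at 24 h and 7.46% between the times, and 0% for Slpi at 3 h. Without the minimum total only 2 of the 5 nearest genes of Serpina3n and 1 of the 5 of Slpi remained. At a 2-fold limit 1 serine protease inhibitor, Slpi, and 0 serine proteases were below control at 3 h, in place of 2 and 1. The other 34 of 52 alternatives moved their value by less than 1.5 times. Replicates could not be left out and no paired analysis was possible because only group means were used. The depth per library is unknown, so nothing can be said of how well the low means, such as 3.27 for Serpina3n in controls and 5.76 for Slpi at 3 h, were measured.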
